A study of Mus musculus with 23 samples.

Results

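The 51 genes described here encode Rab GTPases, the small proteins that mark the membranes of the cell and direct vesicles between them. They are the protein-coding genes of the GRCm39 annotation named Rab with a number and at most 1 letter that had at least 10 counts in at least 10 of the 23 libraries, out of 59 such symbols and of 56941 genes in the count tables. Poly(A) RNA came from cultured hippocampal neurons of newborn mice homozygous for a floxed Nedd8 allele (Nedd8cKO). The allele was made in FVB/N zygotes, while the study's reporting summary gives a C57BL substrain for the homozygous animals. Both groups carried this allele and were infected on the first day in vitro with a lentivirus driven by the Synapsin1 promoter, which expressed RFP alone in the RFP group and the CRE recombinase with RFP in the CRE group, and the labels place the harvest at day 12. This promoter is active mainly in neurons, while the cultures were made from whole hippocampus and also hold glial cells.

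Nedd8 encodes the ubiquitin-like protein whose attachment to cullins switches on the cullin-RING ubiquitin ligases. The comparison of CRE with RFP libraries asks how RNA levels changed with the loss of Nedd8. In the CRE libraries Nedd8 was at 11.4 ± 3.68 CPM (read counts per gene made comparable between library sizes; SD, n = 10) against 60.6 ± 10.0 in the RFP libraries (n = 11), a log2 fold change of -2.41 with an adjusted p of 1.787e-12, and the groups did not overlap. Of 12 CRE and 11 RFP libraries, 2 CRE libraries (Cre1-3 with 7430401 counts and Cre3-3 with 1546796), which Methods names as removed, were left out of the main comparison. The study's files also hold a second choice, without Cre3-3 and RFP3-2, which was run as an alternative and ended the calls of Rab9, Rab9b and the Rab6b to Rab6a ratio. The other 21 held 7635735 to 17112815 counts, of which 0.523% to 0.758% lay on Rab genes. Mitochondrial genes took 0.261% and 1.83% of counts in the libraries left out and 3.43% in RFP2-4, against 6.997% to 11.1% in the others, and the ribosomal Rn18s-rs5 took 24.2% in RFP3-2. The number before the hyphen was read as 1 of 3 cultures. The study's methods count animals or biological replicates, of which the libraries of 1 number may be repeats, and the labels do not say. The n given below counts libraries and not cultures, so p-values measure the spread between libraries, which may be technical, and may be too small. With counts summed to 1 value per culture and condition, 7 Rab genes were called higher and 7 lower in CRE, where 22.9% of all genes were called.

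A Rab protein is a switch. Exchange factors load it with GTP, the loaded form recruits effectors such as tethers and motors to its membrane, GTPase-activating proteins return it to the GDP form, and an inhibitor of GDP release takes that form off the membrane for the next round. In neurons the Rab3 proteins sit on synaptic vesicles, Rab5 and Rab7 on early and late endosomes, Rab11 on recycling endosomes, and Rab1, Rab2 and Rab6 act between the endoplasmic reticulum (ER) and the Golgi. The family grew by gene duplication, and many members have a close relative.

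Reads must tell such relatives apart for the values below to belong to single genes, so the start of the nucleotide-binding loop, the most conserved part of the protein, is shown for the relatives with which the results deal most. Each line gives 60 coding bases of GRCm39 from the first glycine codon of that loop, and capitals mark bases that differ from the first gene of the group. The Rab3 genes of synaptic vesicles lie at chr8:71208587-71208646 (+, Rab3a), chr4:108747589-108747648 (+, Rab3b), chr13:110397097-110397156 (-, Rab3c) and chr9:21827085-21827144 (-, Rab3d).
Rab3a: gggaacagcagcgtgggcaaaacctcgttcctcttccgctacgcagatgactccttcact
Rab3b: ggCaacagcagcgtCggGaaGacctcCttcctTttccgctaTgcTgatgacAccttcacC
Rab3c: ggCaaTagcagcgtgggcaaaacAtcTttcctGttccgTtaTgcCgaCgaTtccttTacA
Rab3d: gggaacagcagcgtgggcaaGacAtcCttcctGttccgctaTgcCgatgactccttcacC

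Against Rab3a, Rab3b differed at 10, Rab3c at 12 and Rab3d at 7 of these 60 bases. The SOCS box genes, whose products bind CUL5, lie at chr11:121278846-121278905 (-, Rab40b) and chr17:26138361-26138420 (-, Rab40c) and differed at 9 bases.
Rab40b: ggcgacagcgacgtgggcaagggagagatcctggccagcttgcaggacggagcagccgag
Rab40c: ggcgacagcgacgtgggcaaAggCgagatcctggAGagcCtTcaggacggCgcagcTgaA

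The late endosomal pair lies on the X chromosome at chrX:165241211-165241270 (-, Rab9) and chrX:135762300-135762359 (-, Rab9b) and differed at 12 bases.
Rab9: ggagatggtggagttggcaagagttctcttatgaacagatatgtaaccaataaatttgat
Rab9b: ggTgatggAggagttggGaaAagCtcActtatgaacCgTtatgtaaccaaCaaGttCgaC

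The Golgi pair is spliced within the stretch, which runs over 2 exons between chr7:100257488-100275805 (+, Rab6a) and chr9:102989413-103017627 (+, Rab6b), and differed at 10 bases.
Rab6a: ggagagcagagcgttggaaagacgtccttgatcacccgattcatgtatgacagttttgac
Rab6b: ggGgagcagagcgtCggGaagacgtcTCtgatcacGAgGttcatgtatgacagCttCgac

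Over their whole coding sequences, the 17 pairs of related members were 67.6% to 79.2% identical, and 0 pairs shared a stretch of 50 bases. Reads of a pair can therefore be told apart over most of the coding sequence. The 50-base stretches that members did share were mostly with other genes. For Rab43 69.1%, for Rab4b 54.1% and for Rab2b 44.0% of all 50-base stretches of their transcripts also occurred in Gm45140, Gm21983 or Gm43766, read on either strand, so counts of these genes are uncertain.

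In the RFP libraries the level per kilobase of annotated exon spanned a ratio of 704 between the highest and the lowest member. Rab6b, the neuronal form of Rab6, stood at 167 ± 6.54 CPM per kilobase (SD, n = 11) and Rab3a at 165 ± 15.9, which did not differ beyond their spread. Rab6a followed at 108 ± 18.9, and its spread overlapped that of Rab10, which acts in transport to the plasma membrane (88.7 ± 10.8). Rab1a, the ER to Golgi Rab, was the fifth at 68.4 ± 7.62. These 5 genes made up 47.8% of the summed level per kilobase. The lowest members were Rab27a and Rab43, both at 0.238 CPM per kilobase. In the CRE libraries Rab6b and Rab3a stood at 115 ± 14.4 and 115 ± 17.5 CPM per kilobase (n = 10), beside 114 ± 14.4 for Rab6a, and Rab31 had moved from 27.6 ± 3.93 to 80.5 ± 22.98.

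**Figure D1:**
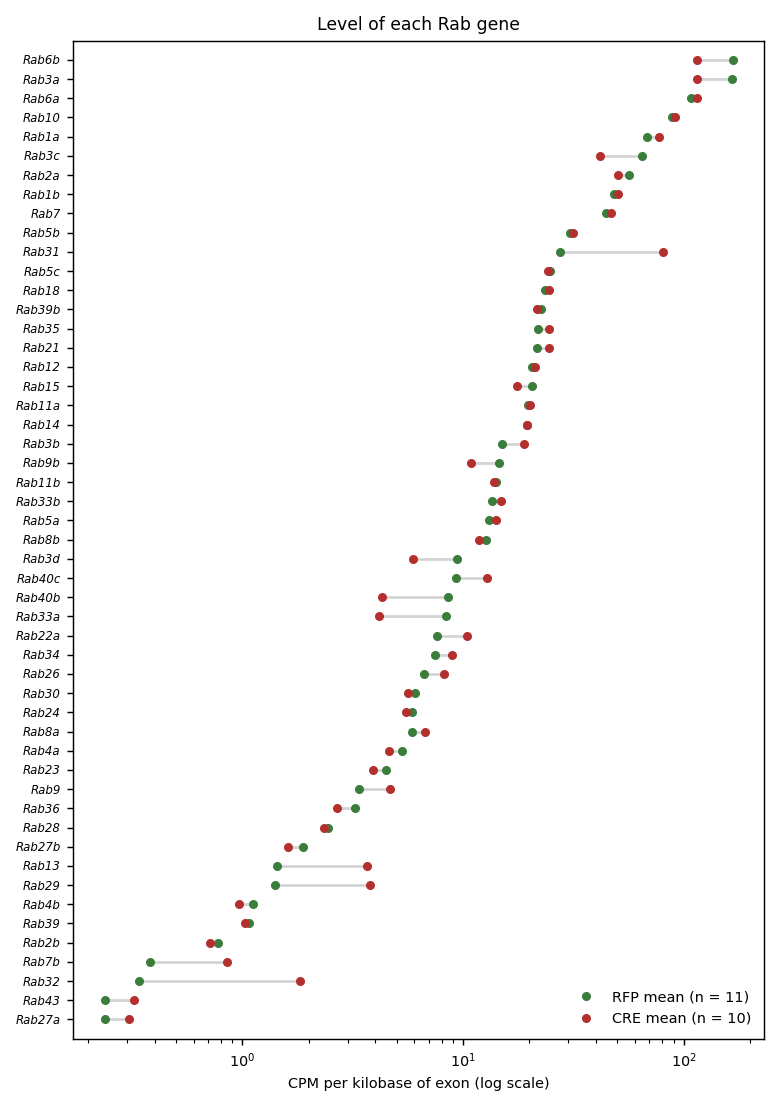
Mean level of each of the 51 Rab genes in CPM per kilobase of exon, on a log axis, with 1 point for the 11 RFP and 1 for the 10 CRE libraries. Rab6b and Rab3a lead in RFP libraries at 167 and 165, and the points of Rab31 (27.6 and 80.5) and Rab32 (0.339 and 1.83) lie far apart.

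The sum over all members was 6743 ± 496.5 CPM in CRE (SD, n = 10) and 7108 ± 379.6 CPM in RFP libraries (n = 11), with a two-sided permutation p of 0.0755. As a share of raw counts the direction was the other way, at 0.702% ± 0.032% in CRE and 0.686% ± 0.060% in RFP libraries (permutation p = 0.554). In the quasi-likelihood test of edgeR, adjusted over 14482 genes by the Benjamini-Hochberg method, 15 of the 51 Rab genes had an adjusted p under 0.05, 8 higher and 7 lower in CRE. In the main comparison this share, 29.4%, was under that of all genes tested, of which 37.9% were called, 20.2% higher and 17.8% lower. The order depended on the fit. With no filter beyond 1 count, 15 Rab genes were again called, beside 24.4% of all genes. Without culture 2 there were 16, beside 25.9%. In the main comparison the median log2 fold change was 0.04 over Rab genes and 0.02 over all genes. All 15 called members had the same sign in each of the 3 cultures, whose libraries also gave the calls. Some of these values were near 0, such as 0.14 for Rab7b in culture 3. Within culture 1 alone 15 members were called (24.9% of all genes), within culture 2 there were 9 (20.2%) and within culture 3 there were 10 (10.6%). Those of culture 1 were not the same 15. They included Rab15, Rab1a and Rab36 and left out Rab40c, Rab13 and Rab9b. The CRE and RFP libraries did not overlap in CPM for 5 members (9.80%), against 5.67% of all genes. Of these, Rab31 and Rab32 were higher in CRE (3.07% of all genes) and Rab6b, Rab3d and Rab3a were lower (2.6%). Rab31 and Rab32 also passed stricter limits, a log2 fold change beyond 1.3 in either direction with a -log10 adjusted p over 6, as 2.09% of all genes did. Of the 36 members that were not called, 26 had a 95% interval of the log2 fold change within ± 0.5, and for the other 10 it reached past 0.5 on at least 1 side.

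**Figure D2:**
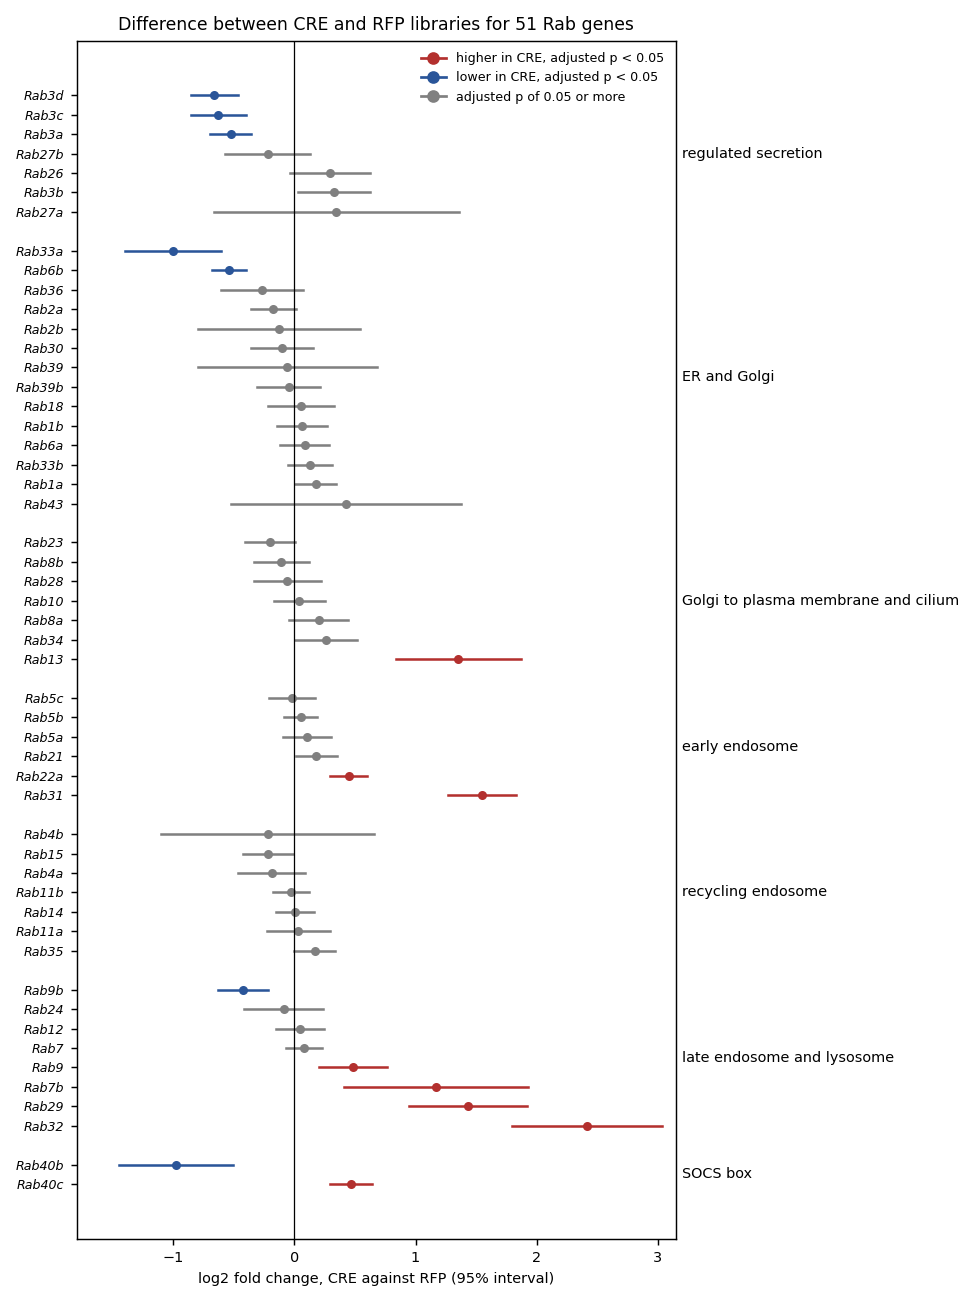
Log2 fold change of CRE against RFP libraries for the 51 Rab genes, grouped by the transport step in which they act, with points for the edgeR estimate and lines for the 95% interval. The called genes of regulated secretion and of the ER and Golgi all lie below 0, and the 2 called early endosomal genes, Rab22a (0.45) and Rab31 (1.55), lie above 0.

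Among the 7 Rab genes of regulated secretion, 3 fell, all of the Rab3 family, and 0 rose. Over all genes tested, 17.8% were lower and 20.2% higher. Rab3a (chromosome 8, 71207238 to 71211333, plus strand), the main Rab of synaptic vesicles, had 284 CPM in the lowest, 328 in the median and 429.9 in the highest CRE library, and 432, 492 and 601 CPM in RFP libraries. Every CRE library lay below every RFP library, and the log2 fold change was -0.53 ± 0.08 (SE, adjusted p = 7.184e-06). The libraries left out were on the other side, at 699.5 CPM in Cre1-3 and 606 CPM in Cre3-3, both above all RFP libraries. With all 23 libraries the log2 fold change of Rab3a was -0.33 and the adjusted p 0.0741. Its exons overlap those of Mpv17l2 on the other strand over 541 bases, and the strand setting of the counting is not given in the sources used here.

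The other called Rab3 genes behaved alike in sign. Rab3c (chromosome 13) had 350.5, 502.5 and 635 CPM as the lowest, median and highest CRE values and 559.9, 706.5 and 1122 CPM as those of RFP libraries, and 8 of 10 CRE libraries lay below all RFP libraries. Its log2 fold change was -0.63 ± 0.11 (adjusted p = 4.08e-05), while Cre1-3 and Cre3-3 stood at 67.6 and 129.6 CPM. Rab3d, less abundant and best known from secretory granules, had 28.6, 34.2 and 42.5 CPM in CRE and 48.2, 55.7 and 70.7 CPM in RFP libraries, without overlap (log2 fold change -0.66 ± 0.09, adjusted p = 1.952e-06). Of the left-out libraries, Cre1-3 at 51.1 CPM lay within the RFP range of Rab3d and Cre3-3 at 27.3 CPM below it. Rab3b did not pass the test, at 71.2 ± 19.1 CPM in CRE and 56.8 ± 11.6 in RFP libraries (log2 fold change 0.33, 95% interval 0.03 to 0.63, adjusted p = 0.0795). The other secretory members, Rab26 (0.30, adjusted p = 0.152), Rab27a (0.35, adjusted p = 0.626) and Rab27b (-0.22, adjusted p = 0.328), were not called.

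The called neuronal markers were lower in CRE, as were the called Rab3 genes. Of 8 neuronal markers 5 were lower and 0 higher in CRE, where 17.8% of all genes tested were lower and 20.2% higher. With or without a call, 7 of the 8 had a negative and 1 a positive log2 fold change. The summed level of the 8 was 3058 to 5493 CPM in CRE against 5152 to 6839 CPM in RFP libraries. Of 8 markers of GABA neurons 2 were lower and 0 higher, while 5 had a positive and 3 a negative log2 fold change. Of 8 markers of the oligodendrocyte lineage 5 were lower and 0 higher, with sums of 425 to 1009 CPM and 584 to 1867 CPM. Among the lower ones, the log2 fold changes of Pdgfra within cultures 1, 2 and 3 were -4.51, -3.58 and -0.26. Those of Sox10 were -6.34, -4.29 and -0.46, of Cspg4 -3.24, -2.79 and -0.59, and of Olig2 -1.26, -1.405 and -0.17. Pdgfra, Sox10, Cspg4 and Olig2 were not called within culture 3. In bulk RNA fewer cells of a type and less RNA per cell cannot be told apart, and the part of these markers in the Rab values was not tested.

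Of the 14 ER and Golgi members 2 fell and 0 rose, where 17.8% of all genes tested were lower and 20.2% higher. Rab6b (chromosome 9, 102988943 to 103062475, plus strand) had 691, 915 and 1010.0 CPM as the lowest, median and highest CRE values and 1198, 1279 and 1385 CPM as those of RFP libraries. The groups did not overlap, and at 1034 CPM Cre3-3 was also below every RFP library, as was Cre1-3 at 761 CPM. The log2 fold change was -0.54 ± 0.07 (adjusted p = 3.724e-07). Rab33a, which acts at the Golgi and on vesicles of growing axons, had 5.16, 11.3 and 17.6 CPM in CRE and 12.9, 22.2 and 43.2 CPM in RFP libraries, and 7 of 10 CRE libraries lay below all RFP libraries (log2 fold change -1.01 ± 0.19, adjusted p = 0.0001284). The log2 fold changes of the uncalled ER and Golgi members ran from -0.27 for Rab36 to 0.43 for Rab43.

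The uncalled ones included abundant genes. Rab6a had 539 ± 67.7 CPM in CRE and 508 ± 89.2 in RFP libraries, with a log2 fold change of 0.08 and a 95% interval from -0.12 to 0.29. For Rab1a the log2 fold change was 0.17 (adjusted p = 0.104), for Rab1b 0.06 and for Rab2a, which acts between the ER and the Golgi as well, -0.18 (adjusted p = 0.135). Rab18, a Rab of the ER and lipid droplets, had a log2 fold change of 0.06, Rab30 of -0.10, Rab33b of 0.13 and Rab39b, mutated in an X-linked intellectual disability, of -0.05. The rarer Rab2b (-0.13) and Rab39 (-0.06) had intervals reaching past 0.5 on both sides, from -0.80 to 0.55 and from -0.80 to 0.68.

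Of the 6 early endosomal members 2 rose and 0 fell, beside 20.2% higher and 17.8% lower over all genes tested. The 2 that rose are close relatives. Rab31 (chromosome 17, 65958723 to 66079839, minus strand), which acts between the trans-Golgi network and endosomes, had 254.7, 540.4 and 699 CPM as the lowest, median and highest CRE values and 137, 178 and 219 CPM as those of RFP libraries. Every CRE library was above every RFP library, as were Cre1-3 at 425 CPM and Cre3-3 at 236 CPM. The log2 fold change was 1.55 ± 0.14 (adjusted p = 1.63e-09), or 2.92-fold with a 95% interval from 2.40 to 3.55. Within cultures 1, 2 and 3 it was 1.82, 1.44 and 1.09. Rab22a had 84.3, 105 and 119 CPM in CRE and 66.5, 76.0 and 85.0 CPM in RFP libraries, and 9 of 10 CRE libraries lay above all RFP libraries (log2 fold change 0.45 ± 0.08, adjusted p = 2.193e-05). The Rab5 genes of early endosome fusion were not called, with log2 fold changes of 0.10 (Rab5a), 0.05 (Rab5b) and -0.02 (Rab5c) and all 3 intervals within ± 0.5, nor was Rab21 (0.18, adjusted p = 0.0916).

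None of the 7 recycling members passed edgeR's adjusted threshold, which 37.9% of all genes tested passed. Of the 7, 1 member, Rab15 (-0.22, adjusted p = 0.0931), had an unadjusted p under 0.05. Rab15 was called without culture 3 (-0.43, adjusted p = 0.00208), without Cre3-3 and RFP3-2 (-0.27, adjusted p = 0.0434) and in 2 more alternatives. Rab11a, Rab11b and Rab14, the main Rabs of recycling endosomes, had log2 fold changes of 0.03, -0.03 and 0.01, with intervals from -0.23 to 0.29, from -0.18 to 0.12 and from -0.15 to 0.16. Rab35 was at 0.17 (adjusted p = 0.116), and was called in 4 alternatives, among them all 23 libraries (0.40, adjusted p = 0.0482). Rab4a, of the fast recycling route, was at -0.19. The rare Rab4b, at 1.92 ± 1.26 CPM in CRE and 2.23 ± 1.70 in RFP libraries, had an interval from -1.10 to 0.66.

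Of the 8 late endosomal and lysosomal members 4 rose and 1 fell, where 20.2% of all genes tested were higher and 17.8% lower, and the increases of Rab9 and Rab7b were each lost in 3 alternatives. Rab32, a Rab of lysosome-related organelles and mitochondria, had 3.37, 6.55 and 11.6 CPM in CRE and 0.516, 1.42 and 2.72 CPM in RFP libraries, without overlap. These are 46 to 153 counts a library in CRE and 4 to 27 in RFP libraries, and the log2 fold change was 2.42 ± 0.30 (adjusted p = 2.276e-07), the largest of the family. Rab29, which recruits the kinase LRRK2 to membranes, had 4.82, 10.7 and 21.2 CPM in CRE and 2.26, 4.26 and 8.15 CPM in RFP libraries. Here 8 of 10 CRE libraries were above all RFP libraries (log2 fold change 1.43 ± 0.24, adjusted p = 1.919e-05).

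Rab9 and Rab9b, which are known for the return route from late endosomes to the trans-Golgi network, were called in opposite directions. Rab9 had 40.9, 67.1 and 93.0 CPM in CRE and 26.98, 51.2 and 74.1 CPM in RFP libraries (log2 fold change 0.48 ± 0.14, adjusted p = 0.006339), and 4 of 10 CRE libraries lay above all RFP libraries. Rab9b had 49.7, 57.1 and 60.8 CPM in CRE and 43.1, 75.4 and 97.01 CPM in RFP libraries (-0.43 ± 0.10, adjusted p = 0.001232). The lowest RFP values of both genes were those of RFP2-4, and for Rab9b the other 10 RFP libraries lay above every CRE library. Both calls were lost with other sets of libraries. In Cre1-3 and Cre3-3 both genes were low, at 19.8 and 6.82 CPM for Rab9 and 5.45 and 9.55 CPM for Rab9b. With all 23 libraries the adjusted p was 0.432 for Rab9 (log2 fold change 0.28) and 0.0596 for Rab9b (-0.64). Leaving out Cre3-3 and RFP3-2 in place of Cre1-3 and Cre3-3, it was 0.161 (0.37) and 0.0802 (-0.53), and without culture 1 that of Rab9 was 0.15 (0.34). Exons of Rab9 overlap those of Trappc2 on the other strand over 734 bases.

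Rab7b, which is distinct from Rab7 and also acts on the route to the trans-Golgi network, had 1.62, 3.32 and 8.41 CPM in CRE and 0.273, 1.92 and 3.33 CPM in RFP libraries (log2 fold change 1.17 ± 0.37, adjusted p = 0.01304). The groups overlapped, with 5 of 10 CRE libraries above all RFP libraries. Without culture 1 the log2 fold change was 0.77 (adjusted p = 0.23), without culture 2 it was 1.14 (0.0607), and with counts summed per culture it was 1.18 (0.054). Rab7 itself, the main Rab of late endosomes and lysosomes, was at 297 ± 40.8 CPM in CRE and 281 ± 11.7 in RFP libraries, with a log2 fold change of 0.08 and an interval from -0.07 to 0.23. Rab12 (0.05) and Rab24 (-0.09), which take part in autophagy, were not called.

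In the group that carries cargo from the Golgi to the plasma membrane and the cilium, 1 of 7 rose and 0 fell. Over all genes tested, 20.2% were higher and 17.8% lower. Rab13, known from cell junctions and neurite growth, had 4.00, 8.28 and 14.2 CPM in CRE and 1.90, 3.05 and 6.26 CPM in RFP libraries, and 8 of 10 CRE libraries lay above all RFP libraries (log2 fold change 1.35 ± 0.25, adjusted p = 8.997e-05). Rab10 (0.04, interval -0.17 to 0.25), Rab8a (0.20, interval -0.04 to 0.44) and Rab8b (-0.11, interval -0.33 to 0.12), which deliver membrane to growing neurites, were not called. Nor were Rab23 (-0.20, adjusted p = 0.121), Rab28 (-0.06) and Rab34 (0.26, adjusted p = 0.108), which are linked to cilia.

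Beside the Rab genes that rose, markers of glia and of vessel and connective tissue cells moved in both directions. Of 8 astrocyte markers 2 were higher and 3 lower in CRE, with sums of 1408 to 4453 CPM in CRE and 2642 to 6301 CPM in RFP libraries. Microglial markers were near 0, with sums over 8 genes of 0.256 to 7.70 CPM in CRE and 1.09 to 6.56 CPM in RFP libraries. Of the 2 that could be tested, Tmem119 was higher, at 1.93 ± 1.03 CPM in CRE against 0.175 ± 0.275. The other, Csf1r, was not called, at 0.624 ± 0.676 CPM in CRE against 1.24 ± 0.47 (edgeR log2 fold change -0.97, adjusted p = 0.207). Of 5 testable markers of endothelial and mesenchymal cells 1 was higher and 1 lower, and the endothelial Cldn5 had at most 3 counts in any library. The part of these cells in the values of Rab31, Rab32, Rab29 or Rab13 was not tested.

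The Rab40 genes stand apart in the family because their products carry a SOCS box, with which they bind CUL5 as substrate receptors of a cullin-RING ligase, and CUL5 is itself a target of NEDD8. The 2 members were called in opposite directions. Rab40b had 5.38, 16.7 and 38.3 CPM as the lowest, median and highest CRE values and 29.3, 39.1 and 47.8 CPM as those of RFP libraries (log2 fold change -0.98 ± 0.23, adjusted p = 0.001373), and 8 of 10 CRE libraries lay below all RFP libraries. Its log2 fold change was -0.62, -1.11 and -1.55 within cultures 1, 2 and 3. Rab40c had 57.2, 67.5 and 89.1 CPM in CRE and 43.8, 51.2 and 57.8 CPM in RFP libraries, and 9 of 10 CRE libraries lay above all RFP libraries (0.47 ± 0.08, adjusted p = 4.988e-05). Beside 20.2% higher and 17.8% lower over all genes tested, 1 of the 6 other genes of the CUL5 ligase rose and 0 fell. It was Arih2, a ligase that works with NEDD8-bound CUL5, at 46.3 ± 6.30 CPM in CRE and 34.8 ± 4.34 in RFP libraries (0.41 ± 0.10, adjusted p = 0.001327).

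**Figure D3:**
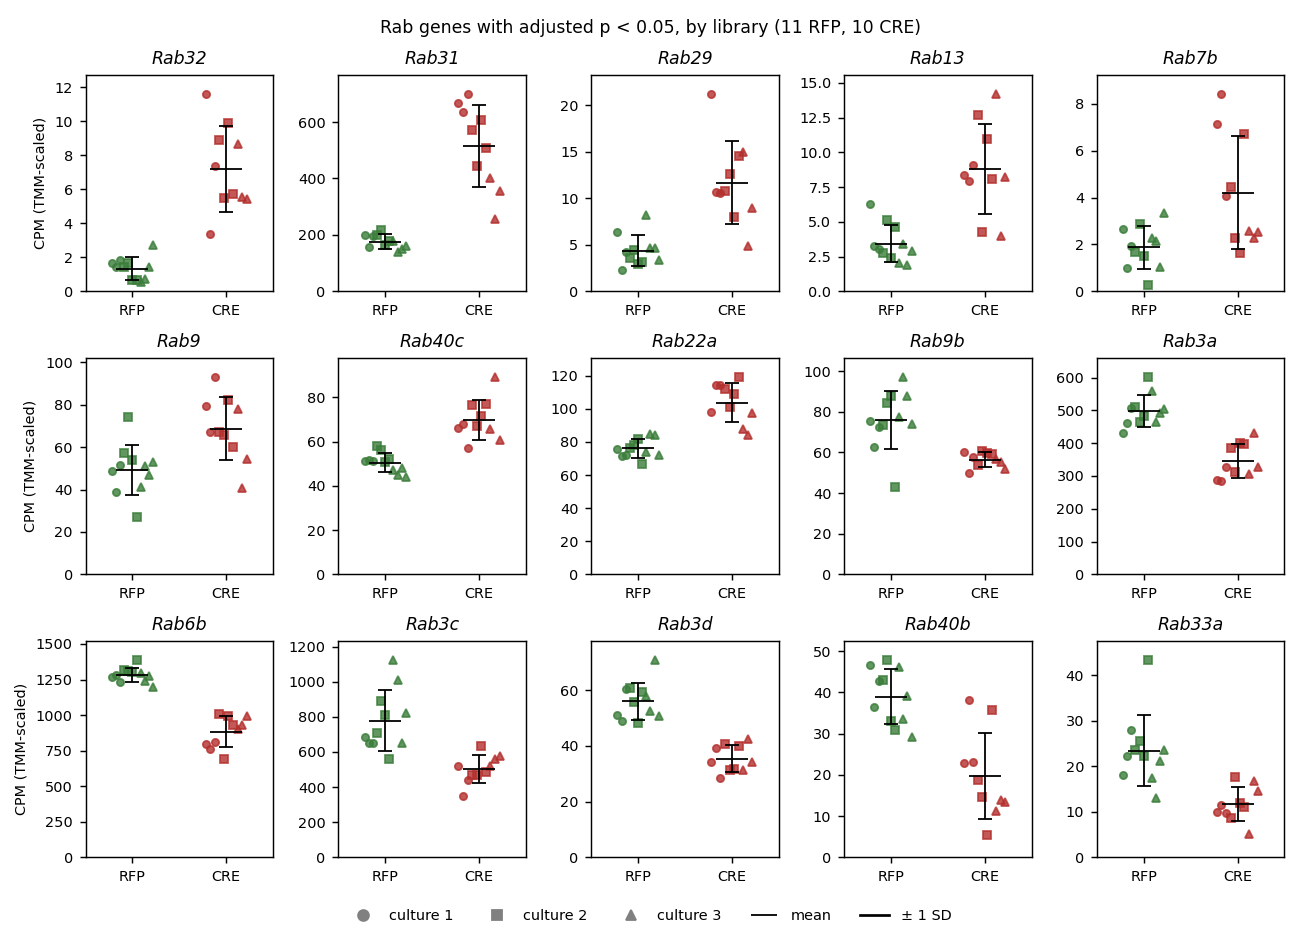
CPM of the 15 Rab genes with an adjusted p under 0.05 in each of the 11 RFP and 10 CRE libraries, with marker shapes for the 3 cultures, bars for the mean and whiskers for 1 SD, ordered from the largest increase to the largest decrease. Rab32, Rab31, Rab3a, Rab6b and Rab3d show groups without overlap, and for Rab9b 1 RFP library, at 43.1 CPM, lies below all CRE libraries.

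The ratio of related genes within a library does not depend on how libraries are scaled. Of the 17 pairs, 6 had ratios that differed between CRE and RFP libraries (two-sided permutation test, 100000 resamples, adjusted over 17 pairs). The smallest p these resamples can give is 2e-05, and Rab31/Rab22a, Rab6b/Rab6a and Rab40c/Rab40b reached it (adjusted p = 0.0001133). The log2 ratio of Rab40c to Rab40b was 2.01 ± 0.86 in CRE (SD, n = 10) and 0.39 ± 0.22 in RFP libraries (n = 11), a difference of 1.62 ± 0.28 (SE) without overlap. For Rab31 to Rab22a the difference was 1.06 ± 0.14, also without overlap, although both genes rose. For Rab6b to Rab6a it was -0.65 ± 0.15, from 1.36 ± 0.35 to 0.71 ± 0.32.

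The Rab9b to Rab9 ratio changed sign, from 0.63 ± 0.24 in RFP to -0.25 ± 0.32 in CRE libraries (difference -0.89 ± 0.12, permutation test adjusted p = 0.000255). For Rab33b to Rab33a the difference was 1.15 ± 0.22 (adjusted p = 0.000408) and for Rab3b to Rab3a 0.83 ± 0.17 (adjusted p = 0.0009633). Rab3b thus differed in its response from Rab3a, while Rab3c to Rab3a (-0.08 ± 0.13, adjusted p = 0.704) and Rab3d to Rab3a (-0.13 ± 0.08, adjusted p = 0.318) did not pass the test. With Cre1-3 and Cre3-3 included, 3 pairs were called, and Rab6b to Rab6a (-0.14, adjusted p = 0.763), Rab33b to Rab33a (0.66, adjusted p = 0.286) and Rab3b to Rab3a (0.56, adjusted p = 0.111) were not. Leaving out Cre3-3 and RFP3-2 instead, Rab6b to Rab6a was at -0.39 (adjusted p = 0.635), and without culture 2 Rab3b to Rab3a was at 0.74 (adjusted p = 0.0594). Rab6a was at 50.4 CPM in Cre1-3 and 82.5 CPM in Cre3-3, against 275 CPM or more in all libraries of the main comparison.

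**Figure D4:**
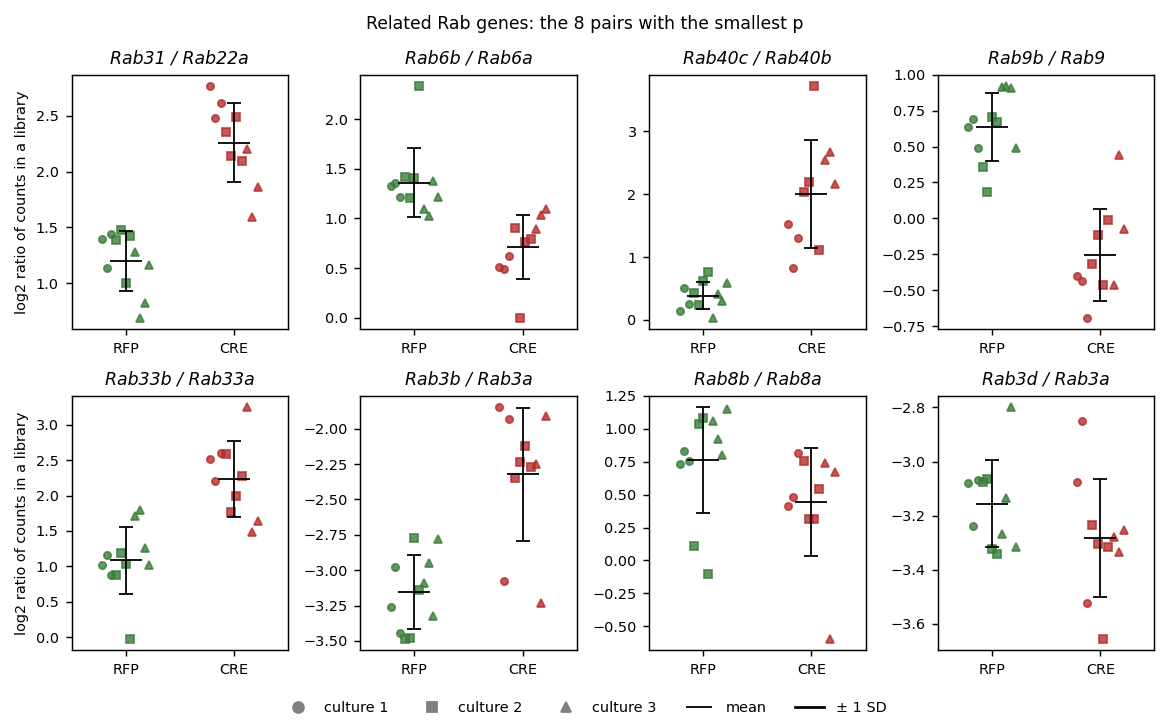
Log2 ratio of the counts of related Rab genes within each library, for the 8 of 17 pairs with the smallest p, in 11 RFP and 10 CRE libraries, with marker shapes for the 3 cultures, bars for the mean and whiskers for 1 SD. The groups do not overlap for Rab31/Rab22a and Rab40c/Rab40b, and the Rab9b/Rab9 ratio passes from 0.63 in RFP to -0.25 in CRE.

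The genes that run the Rab cycle moved in both directions. Of 8 genes for escort, prenylation and membrane retrieval 4 rose and 1 fell, with a median log2 fold change of 0.21. Over all genes tested, 20.2% were higher and 17.8% lower. The summed level of the 8 genes was lower in CRE, at 1052 to 1217 CPM (median 1117), than in RFP libraries, at 1192 to 1322 CPM (median 1249). Chml, an escort protein that presents new Rab proteins for prenylation, rose by 0.74 ± 0.15 (adjusted p = 0.0002919), and Rabggtb, the catalytic subunit of the Rab geranylgeranyl transferase, by 0.45 ± 0.13 (adjusted p = 0.007985). Rabac1, a receptor for prenylated Rab proteins, rose by 0.33 ± 0.12 (adjusted p = 0.02922).

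Of 30 exchange factors and their partners tested (33 listed), 9 rose and 6 fell, with a median of 0.11. Of those with the smallest p, Rin2, an exchange factor for Rab5, rose by 1.43 ± 0.20 (45.0 ± 14.9 CPM in CRE against 16.7 ± 5.28, adjusted p = 2.312e-06) and Rabgef1, another one, by 0.71 ± 0.11 (49.4 ± 6.71 against 30.2 ± 5.42, without overlap, adjusted p = 4.338e-06). Dmxl2 (-0.52 ± 0.08, adjusted p = 6.084e-06) and Wdr7 (-0.41 ± 0.07, adjusted p = 1.764e-05), which encode rabconnectin-3 proteins of synaptic vesicles, fell. These 4 were taken by p, and other called genes of the list differed by more.

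Of 34 GTPase-activating proteins tested (35 listed), 9 rose and 6 fell, with a median of 0.08. Tbc1d2b rose by 1.22 ± 0.11 (adjusted p = 4.753e-10) and Tbc1d24, a gene of epilepsy that acts at the synapse, was at -0.90 ± 0.09 (adjusted p = 4.827e-09), both without overlap. Rabgap1l was at -0.78 ± 0.13 (adjusted p = 3.77e-05), and Tbc1d4, which acts on Rab8 and Rab10, was at 1.08 ± 0.21 (adjusted p = 0.0001258). Of 38 effectors tested (42 listed), 6 rose and 9 fell, with a median of 0.02. The 4 with the smallest p were all without overlap: Rims1, the active zone effector of Rab3 (-0.65 ± 0.08, adjusted p = 2.378e-07), the motor gene Myo5a (-0.51 ± 0.07, adjusted p = 1.013e-06), and the Rab11 effectors Rab11fip5 (0.64 ± 0.09, adjusted p = 1.086e-06) and Rab11fip4 (-0.51 ± 0.08, adjusted p = 3.904e-06). Called genes were thus 15 of 30, 15 of 34 and 15 of 38 in these lists, beside 37.9% of all genes tested. The genes named here were taken by p, which favours groups without overlap, so that trait is no separate support. Of all genes tested, 5.67% had no overlap.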

How the data were processed

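Poly(A) RNA of 23 libraries was converted with a stranded mRNA kit. The authors aligned reads to GRCm39 (Ensembl release 110) and deposited, for each library, raw whole-number counts per gene without normalization. Per the submitters' processing notes the tools were bcl2fastq 2.20.0.422, STAR 2.7.8a and featureCounts 1.5.0-p1. The strand setting and the handling of multimapping reads are not given in the sources used here. Groups came from the labels. GENCODE M39 named 56323 of 56941 identifiers (99.951% of counts).

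Counts of 21 libraries (10 CRE, 11 RFP) were compared with edgeR 4.0.16 in R 4.3.3 (filterByExpr, TMM, robust quasi-likelihood fit, no covariate), with Benjamini-Hochberg adjustment over 14482 genes. All 51 Rab genes passed the filter. CPM used TMM factors over 14382 genes of all 23 libraries, and levels per kilobase used the union of annotated exons. Log2 ratios of related genes had 0.5 added to each count and were compared by permutation (scipy 1.17.1). Alternatives were 18 for the fit, among them DESeq2 1.42.0 and limma 3.58.1, and 7 for the ratios.

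Members, roles and lists were chosen with earlier results of these data known. Detailed values are given for the up to 14 members with the smallest p among those called, for Rab3a and for both Rab40 genes. Values in brief are given for the 5 members with the highest level, for members whose call an alternative ended and for up to 4 called genes of each list. Tmem119, Csf1r, Cldn5, Pdgfra, Sox10, Cspg4, Olig2 and the genes that overlap or share sequence with Rab genes were named after their values were seen. The values of 1 gene that met these criteria are left out.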

Additional observations from a re-analysis of the deposited data

How the results depend on the processing

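Over 18 alternative fits, 261 of 270 values of the 15 called Rab genes kept their direction and their side of the threshold, 9 lost the call, and 0 changed direction. The lost calls were those of Rab3a, Rab9, Rab9b and Rab7b, and the cause was not tested. Most of these fits reused the same 21 libraries. Apart from Rab7b with counts summed per culture, all lost calls came in fits with another set of libraries. With library size alone as the scaling, 13 members were higher and 7 lower, with the median of all genes at 0.13 in place of 0.02, and the added ones included Rab1a (0.28, adjusted p = 0.0103), Rab21 (0.29, adjusted p = 0.0192) and Rab3b (0.43, adjusted p = 0.0202). Of members not called in the main comparison, Rab15, Rab2a, Rab34 and Rab35 were also called in some alternatives. With all 23 libraries 9 were higher and 5 lower, and 3 pairs of related genes differed. Without Cre1-3, Cre3-3, RFP2-4 and RFP3-2 the counts were 8 and 9. With cultures left out in turn, 6 to 8 members were higher and 7 to 8 lower.

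Culture numbers and library numbers recur in both groups. Deviations of libraries from their group means correlated at 0.146, 0.184 and 0.088 for cultures 1, 2 and 3 and at -0.027 to 0.161 for library numbers, so the numbers were not taken to pair the libraries. With the culture number as a replicate block 8 members were higher and 7 lower, and the same with the library number as a block. With the culture block and the trend with GC content removed, they were 9 and 9, and with that trend alone removed 9 and 8.

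The members with the lowest levels were the least precisely measured, and the part of depth in this was not tested. Rab27a, Rab43, Rab4b, Rab2b, Rab39, Rab7b, Rab32 and Rab13, all with RFP means under 5 CPM, had 95% intervals wider than 1 log2 unit.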

Other observations

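The 8 Rab symbols that did not reach 10 counts in 10 libraries were Rab17, Rab19, Rab20, Rab25, Rab37, Rab38, Rab42 and Rab44, and none of them passed the edgeR filter. Rab20, known from early endosomes and phagosomes, was the nearest to the minimum, with 10 counts or more in 9 libraries. It had 3 to 48 counts over the CRE libraries (median 11.5) and 0 to 14 over the RFP libraries (median 0), and its exons overlap those of E230013L22Rik on the other strand over 845 bases. On the other side of the minimum Rab27a, which acts in the release of granules, had 10 counts or more in 15 libraries. Rab38, a relative of Rab32, had 0 to 18 counts in CRE (median 6.5) and 0 to 9 in RFP libraries (median 0). The epithelial Rab17 and Rab25 had at most 2 and 8 counts in any library.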
